A study of Mus musculus with 4 samples.

Results

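The cells described here are those with the most reads in a targeted single-cell RNA sequencing (scRNA-seq) experiment on mouse brain, the cells that an upper read limit took out of the study before clustering. The limit lies within 1 read of 59299.5, the third quartile plus 1.5 interquartile ranges of the reads per cell over all cells. The cells above it number 1678 of the 21172 cells in the deposited tables, and they were set against the 13820 kept cells, which had a read of at least 40 genes and no more reads than the limit. Of the 15498 cells with 40 or more genes, 10.8% were above the limit. The question was whether these cells look like 2 cells read as 1 (doublets) or like microglial states that hold much RNA. The rule used the total reads of a cell, so differences in total reads are given as a description and without a test.

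The cells came from 4 male mice aged 9 months, 2 of them Abi3-/- and 2 Abi3+/+, with 1 library per mouse. All mice carried the 5XFAD transgenes, which express mutant human genes of familial Alzheimer's disease, APP among them, in neurons from the Thy1 promoter and cause amyloid plaques. All were also heterozygous for a Trem2 variant of the SJL background. The Abi3-/- allele is a constitutive deletion, so all cells of these mice lack the gene and not only microglia. Right hemispheres without cerebellum or olfactory bulb were dissociated in Accutase at 4 degrees Celsius, myelin was removed with beads, and 397 immune genes were read with the BD Rhapsody Mouse Immune Response Panel. Abi3 is not in the panel, so the genotype rests on the labels.

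Microglia are the resident macrophages of the brain. Around amyloid plaques they take up a disease-associated state (DAM), in which lysosomal and lipid genes such as Ctsd, Apoe and Cst7 and the integrin gene Itgax rise and genes of the resting state such as Cx3cr1 fall. Larger and metabolically active cells, and cells that copy their DNA, hold more RNA than resting cells. A well that takes up 2 cells also yields more reads, and when the cells are of different types the barcode carries marker genes of both. Trem2 marks microglia here, Cd3e marks T cells, Cd79a marks B cells, and Cxcr2 marks neutrophils. In the GENCODE annotation of GRCm39, Trem2 lies on chromosome 17 from 48653429 to 48661175, Cd3e on chromosome 9 from 44910037 to 44920925, Cd79a on chromosome 7 from 24596740 to 24601622, and Cxcr2 on chromosome 1 from 74193150 to 74200405.

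The cells above the limit numbered 214 and 475 for Abi3-/- animals 1 and 2, and 491 and 498 for Abi3+/+ animals 1 and 2. As a share of cells with 40 or more genes this was 8.44% and 9.55% in Abi3-/- and 11.5% and 13.5% in Abi3+/+, so both Abi3+/+ mice lay above both Abi3-/- mice. The means were 9.00% ± 0.783 and 12.5% ± 1.41 (SD, n = 2 each), a difference of -3.46 percentage points, given as a description since the rule chose these cells by their reads. These few cells held 26.8% and 28.6% of all reads of the Abi3-/- libraries and 36.9% and 37.3% of those of the Abi3+/+ libraries. The libraries had 87117727, 150756771, 139841135 and 133496510 reads in the same order.

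The median cell above the limit had 83608.5 and 79775 reads for Abi3-/- animals and 94337 and 88488.5 for Abi3+/+ animals. The median kept cell had 24283, 19888, 19647.5 and 22514.5 reads. All cells above the limit had at least 48 genes. The mean plus 1.5 interquartile ranges over all cells lay lower, at 55561.7 reads. The cells just inside the limit had 59360 to 59466 reads and those just outside had 59088 to 59271. Libraries shared 182 cell barcodes in all, of which 0 belonged to cells above the limit in both libraries.

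**Figure D1:**
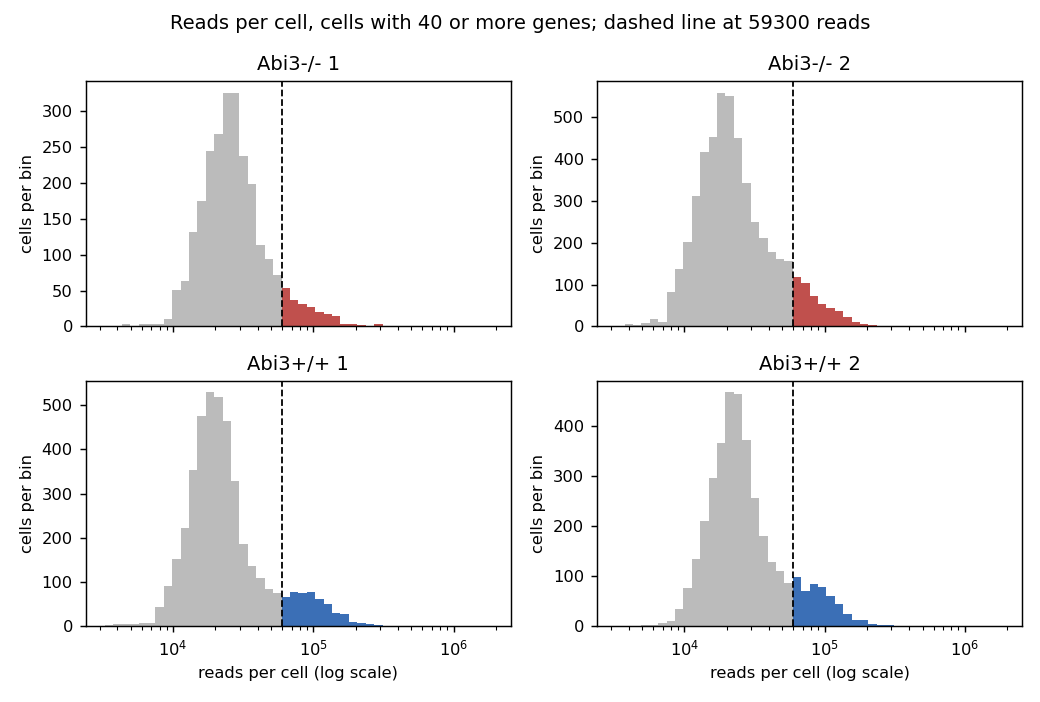
Number of cells per bin of total reads (log scale) in each of the 4 mice, for cells with 40 or more genes; the dashed line is the limit and coloured bars are the cells above it. In every mouse these cells, 214 to 498 in number, lie at the right end, with medians of 94337 and 88488.5 reads for Abi3+/+ animals. From the limit to 103052 reads the bins of Abi3+/+ mouse 1 held 66, 78, 76 and 77 cells. Those of Abi3+/+ mouse 2 held 98, 71, 84 and 78, so in these animals the counts did not fall steadily past the limit. The shape of the distribution was not tested.

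To compare cells of unlike depth, each cell was thinned to 10000 reads, which left out 26, 288, 181 and 64 kept cells of the 4 mice as too shallow. At this equal depth the median cell above the limit still had a read of 104.5 and 102 genes in Abi3-/- and 104 and 98 genes in Abi3+/+, against 81, 81, 78 and 76 in kept cells. Trem2 was read in 92.8% of the cells above the limit and in 95.9% of the kept cells, so both sets were mostly microglia.

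Cells with Trem2 together with Cd3e, Cd79a or Cxcr2 were few. They made up 0 of 214 cells above the limit in Abi3-/- mouse 1, where the limit that a count of 0 allows, taken as 3 cells, is 1.40% and the Clopper-Pearson interval ends at 1.71%. In Abi3-/- mouse 2 they were 10 of 475 cells, or 2.11% (95% Clopper-Pearson interval 1.01 to 3.84), in Abi3+/+ mouse 1 they were 4 of 491, or 0.815% (0.222 to 2.07), and in Abi3+/+ mouse 2 they were 5 of 498, or 1.00% (0.327 to 2.33). Kept cells had 0.261%, 0.594%, 0.221% and 0.478%. The share was higher above the limit in 3 of 4 mice and lower in the other, and the intervals of the 2 cell classes lay apart in Abi3-/- mouse 2 alone. Such intervals take account of counting error alone.

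For the test, the same number of cells per mouse was taken by the reads outside the tested markers, so that no marker chose its own cells. The shares then differed by 0.592 ± 0.725 percentage points (SD, n = 4; exact sign-flip test over mice, 2-sided p = 0.25, where the smallest p that 4 mice allow rounds to 0.13). Without Abi3-/- mouse 2 the mean difference was 0.286. If 2 kept cells of a mouse were drawn at random and each thinned to 5000 reads, the pair would carry Trem2 with another of the markers, from a different cell, in 7.82%, 6.40%, 3.43% and 5.80% of draws. This reference was not tested. All the shares above the limit lay under it. The draws were not restricted to pairs whose reads together pass the limit, and median kept cells had 19647.5 to 24283 reads. A share under the reference therefore cannot decide how many of the cells were doublets. The reference also says nothing of doublets of 2 microglia, which share their markers and cannot be seen this way.

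Of these 19 cells, 18 had Cxcr2, 1 had Cd3e and 0 had Cd79a. The neutrophil list was read with 3 or more genes in 13 of them, and in 12 the calcium-binding protein gene S100a8, the most abundant neutrophil transcript of the panel, took over 10% of all reads. In 10 of them S100a8 took over 60% of reads and Trem2 at most 0.845%. The remaining 3 cells of the 13 had a more even make-up. A cell of Abi3-/- mouse 2 with 59763 reads had 34.8% of reads from S100a8, 16.3% from Ctsd and 1.52% from Trem2. Another of that mouse, with 63284 reads, had 44.3%, 10.4% and 1.02%. The third, also of that mouse, had 112515 reads and a read of all 7 neutrophil genes, with 7.70% of reads from S100a8, 40.2% from Ctsd, 5.15% from Trem2 and 3.14% from the complement genes C1qa and C1qb together, and Apoe, Cst7 and Itgax were all read in it. In 5 cells Cxcr2 was the only neutrophil gene read, S100a8 had 0 reads, Trem2 took 4.08% to 7.37% of reads and Apoe, Cst7 and Itgax were all read.

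Cells with T cell genes made up a smaller share above the limit than below it. Cells with 3 or more of the 12 T cell genes numbered 3 of 1678 above the limit (0.179%) and 276 of 13261 kept cells (2.08%). Among the kept cells they were 3.83%, 1.38%, 1.72% and 2.17% of the 4 mice. T cells are small lymphocytes with little RNA. Ighm was read in 88.8% to 93.1% of Trem2 cells above the limit and in 73.4% to 77.5% of kept Trem2 cells. With lists of 2 or more genes in place of single markers, the difference rose to 8.58 percentage points, and without Ighm, Ighd and Cd79b it was 0.704, a setting chosen after seeing the data. Cd79a, the defining B cell marker, was read in 0 Trem2 cells above the limit in each mouse.

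Most cells above the limit carried DAM genes. Apoe, a lipid carrier, Cst7, a protease inhibitor, and Itgax, which encodes CD11c, were all read in 76.2% and 71.2% of these cells for Abi3-/- animals and in 85.9% and 77.1% for Abi3+/+ animals. Kept cells had all 3 genes in 13.9%, 18.2%, 8.91% and 12.2%. In each mouse the interval above the limit lay far from that of the kept cells, with 66.9 to 75.2 against 17 to 19.4 in Abi3-/- mouse 2, where they were nearest. In numbers this was 1307 of 1678 cells against 1790 of 13261.

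With cells taken by their reads outside Apoe, Cst7 and Itgax, the shares above the limit were 74.8%, 70.3%, 85.3% and 75.9%. They differed from those of the remaining cells by 63.2 ± 10.1 percentage points (SD, n = 4), in the same direction in 4 of 4 mice. The exact sign-flip test gave a 2-sided p of 0.13, the smallest possible. The difference was 68.4 ± 7.69 among cells with Trem2. Ctsd and the other genes of the DAM list still entered this choice of cells. With cells taken by their reads outside all 10 genes of the list, a setting added after seeing the data that shared 167, 359, 427 and 421 cells with the rule, the shares were 64.95%, 56.6%, 78% and 67.1%. The difference was then 52.02 ± 12.8 percentage points (SD, n = 4; exact sign-flip test, 2-sided p = 0.13), and 60.5 ± 8.85 among cells with Trem2. As a background, 0 of 189 cells with 3 or more neutrophil genes and no Trem2 had all 3 genes, at median depths of 30207.5 to 94017 reads, against medians of 21495.5 to 26071 reads in the cells with Trem2.

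The upper limit thus removed a large part of the DAM cells as defined by these 3 genes. Cells with 40 or more genes and at least 10000 reads, thinned to that depth, were counted here. Of those that carried the 3 genes, 33.7% and 30.6% for Abi3-/- animals and 56.7% and 50.1% for Abi3+/+ animals lay above the limit. The share of cells with the 3 genes was 3.07%, 6.33%, 2.42% and 3.17% between 10000 and 20000 reads. It was 49%, 60.1%, 56.4% and 52.0% between 40000 reads and the limit, and 66.3%, 70.7%, 77.8% and 73.7% between the limit and 80000 reads. In the 50 cells nearest the limit on each side it was 60% to 74% outside and 64% to 74% inside. The share thus climbed below the limit as well as past it. Above 120000 reads it was 82.9%, 65.4%, 89.8% and 76%, in each mouse below the value between 80000 and 120000 reads.

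**Figure D2:**
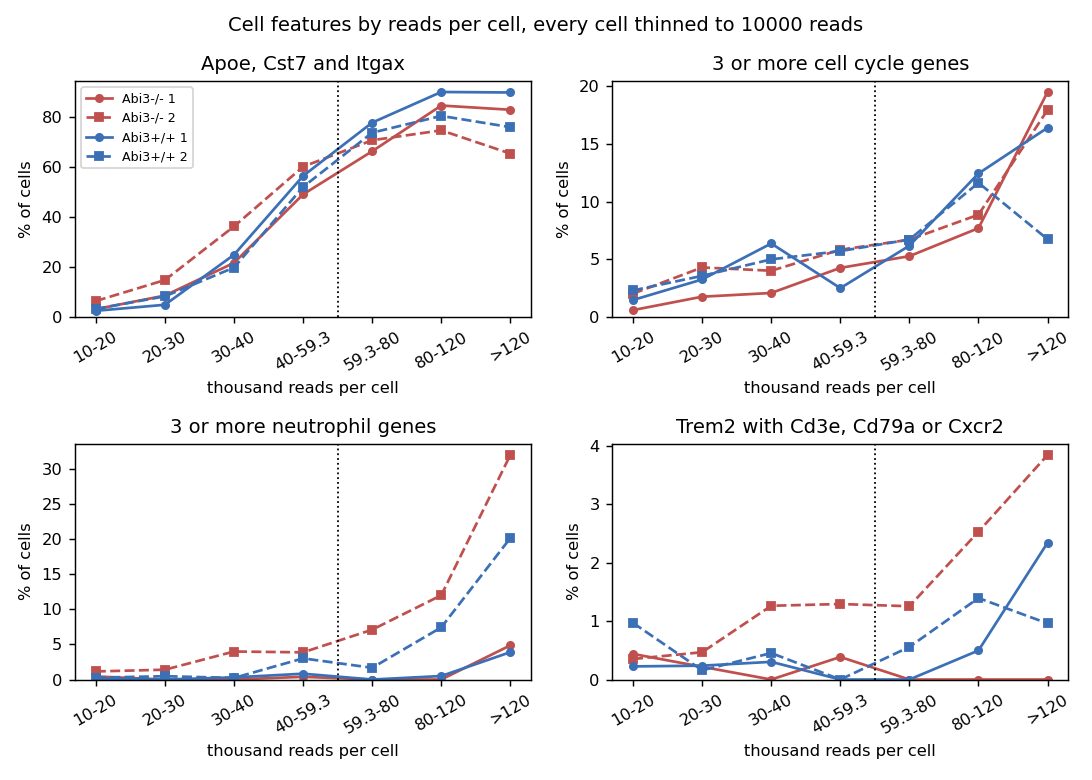
Share of cells with each feature against total reads per cell (in units of 1000 reads) in the 4 mice, every cell thinned to 10000 reads; the dotted line is the limit, red lines are Abi3-/- and blue lines Abi3+/+. Cells with Apoe, Cst7 and Itgax climb from 2.42% to 6.33% in the lowest bin to 49% to 60.1% just below the limit, while cells with neutrophil genes are highest in the top bin, at 32.1% in Abi3-/- mouse 2.

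Cycling cells were a smaller group. A read of 3 or more of 9 cell cycle genes, among them Mki67 and the topoisomerase gene Top2a, was found in 8.88% and 9.26% of cells above the limit in Abi3-/- and in 11.4% and 8.84% in Abi3+/+. Kept cells had 1.74%, 3.35%, 2.60% and 3.5%. With cells taken by reads outside the cell cycle genes, the difference was 6.44 ± 1.74 percentage points (SD, n = 4; exact sign-flip test, 2-sided p = 0.13), in the same direction in 4 of 4 mice. Of the 163 cycling cells above the limit, 111 also had Apoe, Cst7 and Itgax. That was 68.4%, 68.2%, 73.2% and 61.4% of the cycling cells above the limit in the 4 mice, against 22.5%, 13.5%, 5.32% and 9.09% of cycling kept cells. Of all cells above the limit, 76.2%, 71.2%, 85.9% and 77.1% had the 3 genes, in each mouse a larger share than of the cycling ones. Of all kept cells, 13.9%, 18.2%, 8.91% and 12.2% had them. DAM genes, cell cycle genes or both were found in 79%, 74.1%, 89% and 80.5% of the cells above the limit.

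A further group had no Trem2. Of the 120 such cells, 96 had 3 or more neutrophil genes, 10 had monocyte or macrophage genes, 3 had B cell genes, 2 had T cell genes and 10 had none of these lists, with 1 cell in more than 1 list. Neutrophils were unevenly spread over the libraries. Cells with 3 or more neutrophil genes numbered 2, 61, 6 and 40 above the limit in the 4 mice and 4, 78, 5 and 19 among the kept cells, so 33.3%, 43.9%, 54.5% and 67.8% of them were removed by the limit. Few of them came from the mouse numbered 1 of each genotype, and whether mice or libraries differed in this cannot be told apart. The monocyte or macrophage list, read with 3 or more genes, was found in 1.87%, 2.11%, 1.02% and 1.2% of the cells above the limit and in 0.523%, 0.689%, 0.415% and 0.446% of kept cells.

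The very top cells by reads in each mouse were of other kinds. Both cells with over 500000 reads came from Abi3-/- mouse 1, with 1720810 and 1386221 reads, and had no Trem2. The first drew 47.9% of its reads from the light chain gene Igkc, 45.5% from Igha and 4.88% from Jchain, and the other 62.8% from Igkc, 31.4% from Ighg2c and 3.63% from Jchain. These are genes that plasma cells use at very high level. The cell with the most reads in each of the other mice had 270440, 359170 and 483050 reads and drew 77.9%, 74.7% and 83.3% of them from S100a8. Cells ranked 3 by reads had Trem2 in every mouse and drew 45.9%, 51.6%, 52.5% and 47% of reads from Ctsd. In Abi3+/+ mouse 1 the cell ranked 2 had Trem2 as well, with 42.9% of reads from Ctsd.

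A single gene carried much of the depth. Ctsd, which encodes the lysosomal protease cathepsin D and lies on chromosome 7 from 141929646 to 141941775 in GRCm39, took 33.5%, 39.95%, 43.9% and 35.7% of the reads above the limit. In kept cells it took 22.6%, 30.6%, 25.1% and 22%. Without its reads, 37.4%, 26.3%, 36.9% and 40.8% of the cells would still have passed the limit. The 4 values above the limit all lay over the 4 values of the kept cells.

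Reads per cell were higher for genes of every cell as well. Cells above the limit had 3.98 to 4.83 times as many reads in all. Hprt, a purine salvage enzyme used by all cells, had 2.21 to 3.03 times as many reads per cell, and the ribophorin gene Rpn2 2.96 to 3.6 times. Cst7 had 11.3 to 26.1 times as many, Itgax 8.89 to 19.6 times and Ctsd 5.20 to 8.46 times. Cx3cr1, the fractalkine receptor of resting microglia, had 0.847 to 1.32 times as many, and Egr1, an immediate early transcription factor, 0.464 to 0.708 times. Other genes of the same lists had more reads per cell in all 4 mice. Among homeostatic genes these were Selplg with 1.26 to 1.42 times, Entpd1 with 1.4 to 1.68 times and Cmklr1 with 1.42 to 1.78 times as many. Of the immediate early genes, Jun had 1.04 to 1.33 times and Dusp1 1.39 to 1.70 times as many, while Junb had 0.811 to 1.06 times. The cytokine genes Tnf and Il1a had 1.23 to 1.58 and 1.32 to 1.58 times as many, and Ccl2 0.619 to 1.0034 times. The rule chose these cells by their reads, so these ratios are a description.

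Genes were then tested on reads summed per mouse and cell class. For each gene, the cells above the limit were replaced by the same number of cells with the most reads in all other genes, and the gene's reads were set against those other reads. A gene that rose or fell here did so as a share of reads, on a scale set by TMM normalization. edgeR's quasi-likelihood test with the mouse as a block called 138 of 356 genes at an adjusted p under 0.05, or 38.8%. Of these, 64 were higher in the high-read cells (18% of all tested) and 74 lower (20.8%). The median log2 fold change of all tested genes was -0.28. Without TMM it was -1.37, a shift of 1.09, and 23 genes were higher (6.46%) and 188 lower (52.8%), so a value without TMM is given below for each named gene whose sign turned. Of all calls, 46.4% were higher with TMM and 10.9% without it. The count fell to 85 without Abi3-/- mouse 2, to 76 without Abi3+/+ mouse 1 and to 58 without Abi3+/+ mouse 2.

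All 10 of the 10 DAM genes of the list were higher, where 18% of all tested genes were, with a median log2 fold change of 2.04. In the same cells without TMM, 9 of the 10 were still higher, where 6.46% of all tested genes were, and Cd9, a tetraspanin gene, was at -0.13. For each of them the cells were still chosen in part by the reads of the other 9, Ctsd among them, so that genes read in the same cells were not tested independently of the rule or of each other. With cells taken by their reads outside all 10 genes, a setting added after seeing the data, all 10 were again higher with TMM, where 22.4% of all tested genes were, with a median of 1.86 and a range of 0.71 for Cd9 to 2.98 for Spp1. Without TMM, 8 of the 10 were higher in that setting, against 11.4% of all tested genes, with a median of 1.01, and Cd63 was at 0.36 (adjusted p = 0.057) and Cd9 at -0.14 (adjusted p = 0.26). Cst7 took 2.37%, 2.45%, 3.46% and 2.92% of the reads above the limit and 0.482%, 0.859%, 0.640% and 0.653% of those of kept cells, so the lowest value above the limit was over 2 times the highest value of the kept cells. Its log2 fold change was 3.18 ± 0.24 (SE, n = 4 mice; adjusted p = 0.0025). Spp1, which encodes the secreted protein osteopontin, rose by 3.22 ± 0.38 (adjusted p = 0.0054), and Itgax by 2.55 ± 0.22 (adjusted p = 0.0027). Lilrb4a, an inhibitory receptor gene, Csf1, a microglial growth factor gene, Apoe and Lyz2 rose by 2.29, 2.10, 1.97 and 1.96 on the log2 scale, and Cd63, a tetraspanin gene of lysosomes, by 1.61. Trem2 itself, the receptor gene that microglia need to reach this state, was at 1.04 ± 0.12 (adjusted p = 0.0054) with TMM and at -0.06 without it. Ctsd rose by 1.69 ± 0.27 (adjusted p = 0.012) in cells that its own reads did not choose. Among cells with Trem2 and none of Cd3e, Cd79a and Cxcr2, all 10 were again higher, with a median of 1.91, a comparison added after seeing the data. Of the 296 genes tested there, 69 were higher.

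Genes of resting microglia fell as a share of reads. Of the 5 homeostatic genes, 4 were lower and 0 higher, with a median log2 fold change of -0.66. Of all tested genes 20.8% were lower and 18% higher. Without TMM all 5 were lower, where 52.8% of all tested genes were, and the median of the list was -1.75 against -1.37 for all tested genes. Reads per cell of Selplg, Entpd1 and Cmklr1 were higher, as given above. Cx3cr1 took 0.184%, 0.129%, 0.160% and 0.0743% of the reads above the limit against 0.579%, 0.467%, 0.733% and 0.356% of kept reads. It fell by 0.91 on the log2 scale (SE 0.09, adjusted p = 0.0036). Selplg, the P-selectin ligand gene, fell by 0.66. Entpd1, which encodes the nucleotidase CD39, fell by 0.39, and Cmklr1 was at -0.27 (adjusted p = 0.056). Immediate early genes, which respond to stimuli and to tissue handling, were lower in share of reads in 4 of 6 and higher in 0. The same shares of all tested genes, 20.8% lower and 18% higher, apply here. Egr1 fell by 1.80 (SE 0.14, adjusted p = 0.0025), Junb by 1.10, Jun by 0.80 and Dusp1 by 0.35. All 6 were lower without TMM, again against 52.8% of all tested genes, with a median of -1.67.

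Cell cycle genes were higher in 5 of 9 and lower in 0, against 18% and 20.8% of all tested genes. Ube2c, which encodes a ubiquitin-conjugating enzyme of mitosis, rose by 1.99 ± 0.54, Mki67, the proliferation marker, by 1.80 ± 0.43 (adjusted p = 0.034), and 2810417H13Rik, a PCNA-binding factor, by 1.78 ± 0.33. Aurkb, a mitotic kinase, rose by 1.37 and the thymidylate synthase gene Tyms by 1.09. Top2a was at 1.66 ± 0.52 (adjusted p = 0.062). Without TMM, 0 of the 9 were higher and 2 lower, against 6.46% and 52.8% of all tested genes, and Tyms was at -0.0016. The share of cycling cells, which rests on no such scaling, is given above. Ube2c was also read in cells led by S100a8 and without Trem2. The cell with the most reads held 2053 Ube2c reads in Abi3-/- mouse 2 and 2252 in Abi3+/+ mouse 2. Their part in the rise was not tested. Among cells with Trem2 and no other marker, added after seeing the data, 6 of the 9 were higher with TMM, median 1.36, against 69 of 296 tested genes.

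Chemokine and cytokine genes went both ways, with 3 of 9 tested genes higher and 3 lower, against 18% and 20.8% of all tested genes. The chemokine genes Ccl3 and Ccl4 rose by 1.10 and 1.00, and Cxcl16 by 0.95. Without TMM these were at 0.0049, -0.090 and -0.15, and none of them passed the test. Ccl2, a monocyte attractant, fell by 1.35, Tnf by 0.56 and the interleukin gene Il1a by 0.46, and all of these fell without TMM too, as did 52.8% of all tested genes. These falls are in the share of reads, and Tnf and Il1a had more reads per cell above the limit in all 4 mice. Of the 6 genes of the MHC class II list, H2-Ab1 alone passed the test, with a log2 fold change of 1.03 ± 0.19 (adjusted p = 0.018), no larger a share than the 18% of all tested genes that were higher. It was at -0.061 without TMM and at -0.12 at a limit of 80000 reads. H2-Ob, a class II gene outside the list, passed as well, at 1.06 ± 0.16 (adjusted p = 0.011) with TMM and -0.029 without it. As a plain share of reads, each of the pair was higher in 2 of 4 mice and lower in 2 in the cells of this test. When cells were taken by their reads outside the DAM list, 5 of the 6 list genes were higher, with a median of 2.59, against 22.4% of all tested genes, so the count rests on how the cells are chosen. Markers of other cell types moved with it in that setting. Of the monocyte or macrophage list 5 of 6 genes were higher, with a median of 2.50, against 0 of 6 in the cells of the main test, and of the neutrophil list 6 of 7, with a median of 3.52. Their part in the MHC class II values was not tested. Of 7 interferon response genes 3 were higher, with Ifitm2, Ifitm3 and Irf7 at 1.61, 1.45 and 0.78, and 1 was lower, Tmem173 (also named Sting1) at -1.27. In the same test 18% of all tested genes were higher and 20.8% lower. Without TMM, Ifitm2 alone passed the test as higher and 3 of the 7 were lower, against 6.46% and 52.8% of all tested genes. Ifitm3 was then at 0.36 and Irf7 at -0.31.

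**Figure D3:**
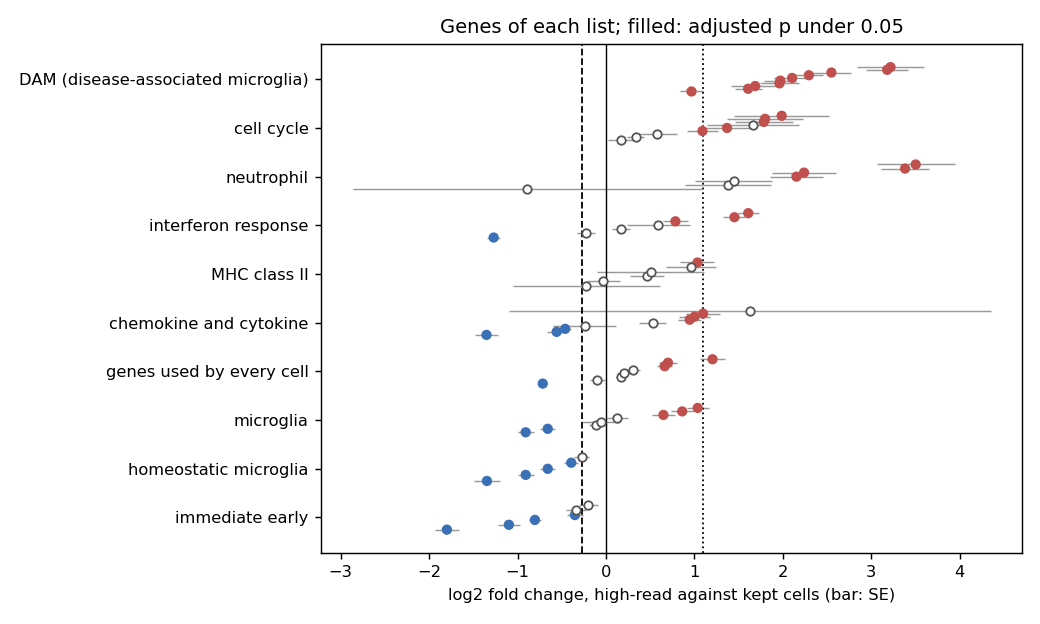
Log2 fold change of each gene of 10 lists, high-read against kept cells, with SE as bars; filled points passed the test (red higher, blue lower) and open points did not. The dashed line is the median of all tested genes, -0.28, and the dotted line stands 1.09 above 0, the shift of the median by TMM. It marks only roughly where the sign turns without TMM, since the shift of single genes ranged from 0.139 to 1.16. All 10 DAM genes lie right of 0 and 9 of them right of the dotted line, the neutrophil genes are drawn for cells that S100a8 reads helped to choose, and homeostatic and immediate early genes lie left of 0.

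For genes of neutrophils the result rested on how the cells were chosen. Reads of S100a8 made up a median of 50% to 77% of all reads in the cells with neutrophil genes and no Trem2 of the 4 mice, and they entered the choice of cells for every other gene. Chosen in this way, 4 of 7 neutrophil genes were higher and 0 lower, against 18% and 20.8% of all tested genes. Mmp9, a matrix protease, rose by 3.5 ± 0.44, S100a9 by 3.38 ± 0.27 (adjusted p = 0.0025), Cxcr2 by 2.24 ± 0.37 (adjusted p = 0.013) and Trem1 by 2.15 ± 0.30. Chil3, a chitinase-like secretory protein, had the largest rise of the called genes, 5.76 ± 0.61 (adjusted p = 0.0044). Without TMM these 4 list genes were still higher, where 6.46% of all tested genes were. When cells were taken by their reads outside all 7 genes of the list, a setting added after seeing the data, 0 of 7 passed the test, where 19.7% of all tested genes were higher, and all 7 had negative values. Mmp9 was then at -4.67 ± 1.68 (adjusted p = 0.093), S100a9 at -1.68 ± 1.98 (adjusted p = 0.50), Cxcr2 at -3.56 ± 1.66 (adjusted p = 0.15), Trem1 at -1.04 ± 0.99 (adjusted p = 0.42) and Chil3 at -4.41 ± 1.51 (adjusted p = 0.081). Among cells with Trem2 alone, Chil3 and Mmp9 were at -2.98 and -6.35 (adjusted p = 0.12 and 0.14). S100a8, on chromosome 3 from 90567118 to 90578128, took 0.804%, 11.7%, 1.89% and 9.68% of reads above the limit and 0.0655%, 1.33%, 0.118% and 0.539% of kept reads. When its own reads did not choose the cells, its log2 fold change was -0.89 ± 1.97 (adjusted p = 0.71).

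The top 10 higher genes past the test with the same direction in 4 of 4 mice were Chil3, Mmp9, S100a9, Spp1, Cst7, the complement gene C3, Itgax, Adgrg3, Lilrb4a and Cxcr2. Of these, Chil3, Mmp9, S100a9 and Cxcr2 are the genes that turned when neutrophil genes did not choose the cells, and Adgrg3 was then at 0.87 (adjusted p = 0.20). C3 rose by 3.06 ± 0.23, by 1.42 among cells with Trem2 alone and by 1.41 with cells taken by reads outside the neutrophil list. Among the lowest genes, Xcl1, a chemokine of activated T cells, had 0 reads in the high-read cells of all 4 mice and was at least 8300-fold lower, counted against a floor of 3 reads over the 4 mice. Tcf7, Lef1, Gata3, Cxcr5 and the pre-B cell gene Vpreb3 had 5 to 97 reads in the high-read cells, were without reads there in 3 of 4 mice, and were 46.2- to 405-fold lower as a share of reads. The interleukin-7 receptor gene Il7r fell by 4.13 ± 0.35, and the T cell kinase gene Lck by 3.71 ± 0.57. In cells taken by reads outside the DAM list, Xcl1, Il7r and Lck fell by 3.0008, 2.69 and 1.28 on the log2 scale. Of the 12 T cell genes 2 passed the test, Lck and Cd3d, both lower, and all 12 had negative values. This is no larger a share than the 20.8% of all tested genes that were lower. In the cells taken by reads outside the DAM list, 7 of the 12 were lower, against 24.7% of all tested genes in that setting. Cd3e was at -7.31 ± 3.18 (adjusted p = 0.12) and Cd79a at -5.68 ± 4.26 (adjusted p = 0.31), and 0 of 8 tested B cell genes passed.

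The cells above the limit were also placed by clustering. The 15498 cells with 40 or more genes fell into 16 clusters. Cluster 4, led by Mmp12, Il12b, Lilrb4a, Cd72, Csf1 and Cst7, held 738 of the 1678 cells, and cluster 6, led by Cst7, Apoe, Itgax and Spp1, held 530. In cluster 4 lay 27.1%, 41.9%, 43.2% and 54% of the cells above the limit of the 4 mice, against 2.97%, 9.11%, 3.48% and 5.59% of kept cells. In cluster 6 lay 37.4%, 31.8%, 35.2% and 25.3% against 4.87%, 7.76%, 5.06% and 5.87%. The neutrophil-like cluster 11, with 6 of the 7 listed neutrophil genes among its 10 leading genes, held 108 of its 224 cells above the limit.

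Cluster 1, led by Cxcl10, Qpct, Pdcd1 and Tnf, had 106 of 2199 cells above the limit. Cluster 10, led by Elane, H2-Eb1, Clec10a, H2-Aa and Igha, had 53 of 228. Cluster 7, led by Il33, Cst7, Il1rn and Spp1, had 52 of 870, and cluster 9, led by Cxcl13, Cd74, Cxcl9 and Spp1, had 39 of 308. Cluster 14, led by Top2a, Ube2c and Mki67, had 32 of 138, and cluster 5, led by Oas2 and Irf7, had 12 of 1508. The other clusters held few or none. Cluster 2, led by the immediate early genes Fosb, Egr1, Dusp1 and Jun, had 2175 cells, 0 of them above the limit. Cluster 3, led by Cx3cr1, had 2 of 1746, and cluster 0, led by Maf, had 4 of 2496. The T cell-like cluster 8 had 1 of 323 and the B cell-like cluster 15 had 1 of 54. Clusters 12 and 13 had 0 of 170 and 0 of 159. The quasi-likelihood test called 14 of 16 clusters (87.5%), 5 with a higher and 9 with a lower share. Ctsd and the DAM genes enter both the clustering and the total reads, so this count describes the clusters and is no independent test.

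**Figure D4:**
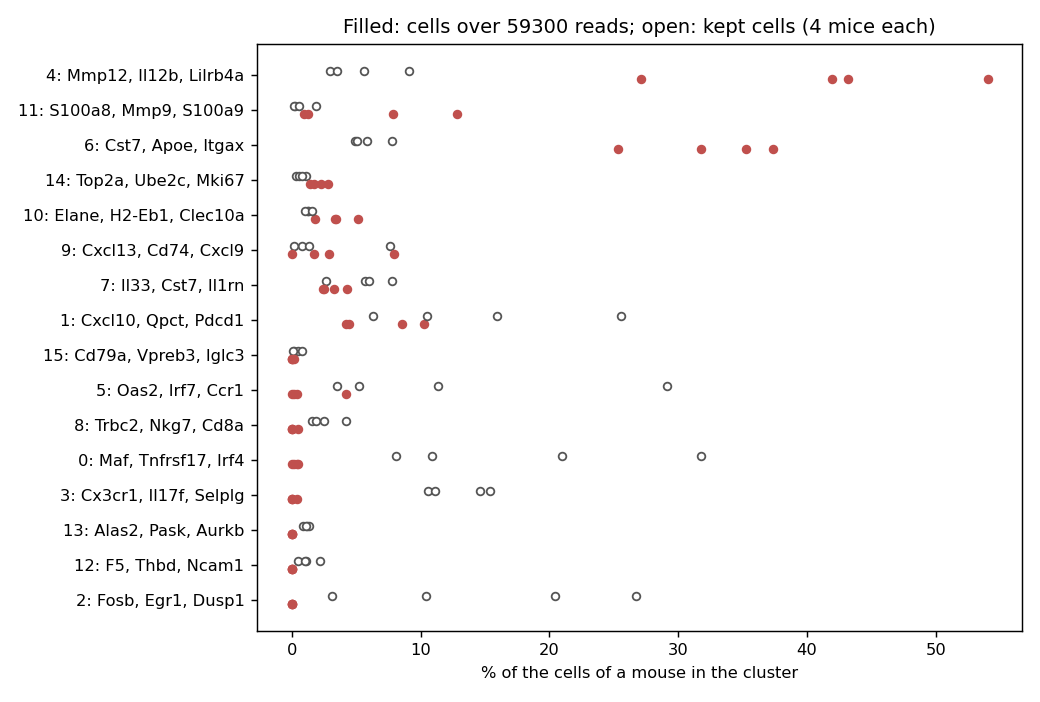
Percent of the cells of each mouse in each of 16 clusters, named by number and 3 leading genes; filled points are cells above the limit and open points are kept cells, 1 point per mouse. In clusters 4 and 6 all 4 filled points, at 25.3% to 54%, lie right of all open points, and in clusters 2, 12 and 13 the filled points are at 0.

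The genotypes were also compared on each side of the limit. Among kept cells with Trem2, 14.6% and 19% had Apoe, Cst7 and Itgax in Abi3-/- and 9.13% and 12.8% in Abi3+/+. The Abi3-/- mice lay higher by 5.84 percentage points, and the genotypes did not overlap. Without Abi3-/- mouse 2 the difference was 3.63 points. Among Trem2 cells above the limit Abi3-/- had 79.1% and 81.3%, against 87.7% and 84.4% in Abi3+/+, with the Abi3-/- mice lower by 5.88 points and again no overlap. With both sets together the shares were 20.2% and 24.9% against 18.6% and 22.3%, a difference of 2.07 points with overlap. The exact permutation p was 0.3333, 0.3333 and 0.667, and 0.3333 is the smallest possible. The difference of the differences was -11.7 points (exact permutation p = 0.3333). This comparison was added after seeing the data. The limit splits cells by total reads, to which Apoe, Cst7, Itgax and Ctsd add, and the cells were not chosen anew without these genes here. Of the cells with the 3 genes, 33.7% and 30.6% in Abi3-/- and 56.7% and 50.1% in Abi3+/+ lay above it. The values on each side of the limit and their difference are therefore a description, which the permutation test cannot decide.

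**Figure D5:**
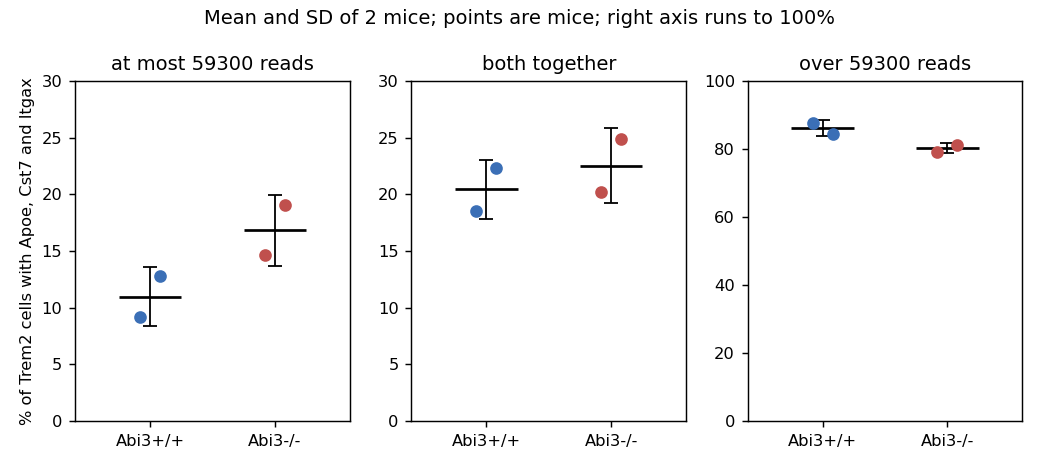
Share of Trem2 cells with Apoe, Cst7 and Itgax in each mouse (points), with mean and SD of 2 mice, for kept cells, for both sets and for cells above the limit; the right panel has an axis of its own. The Abi3-/- mice lie above the Abi3+/+ mice at left (16.8% against 11%), overlap with them in the middle (22.5% against 20.4%) and lie under them at right (80.2% against 86.1%).

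Within the cells above the limit, 0 of 320 genes (0% called) differed between genotypes by edgeR's quasi-likelihood test at an adjusted p under 0.05. At an unadjusted p under 0.05 there were 10, DESeq2 called 10 and limma 0. The common dispersion between mice of a genotype was 0.9782, so a count of 0 does not show that the genotypes were alike. Spp1 had 3606 and 1949 CPM (counts of the gene as a share of all reads of these cells, on the usual CPM scale) in Abi3-/- and 436 and 442 in Abi3+/+. Its log2 fold change was 2.66 ± 0.36 (SE; edgeR adjusted p = 0.45, 3.32e-08 to 0.987 over the alternatives). Kept cells had 17599 and 26021 Spp1 reads in Abi3-/- and 11511 and 11303 in Abi3+/+. Of all kept reads, 61058416 and 102612276 against 82557555 and 78817636, this was a larger share in both Abi3-/- mice. Ccl5, a chemokine of T cells, had 286 and 308 CPM in Abi3-/- and 12.9 and 10.6 in Abi3+/+, with a log2 fold change of 4.67 ± 0.34 (edgeR adjusted p = 0.11, 1.02e-38 to 0.992 over the alternatives). With the cells chosen by the reads of the other genes, a setting added after seeing the data, Ccl5 had 123 and 308 CPM in Abi3-/- and 12.9 and 10.6 in Abi3+/+, and its log2 fold change was 4.22 ± 0.70 (edgeR adjusted p = 0.91). That of Spp1 was then 2.69 ± 0.30 (edgeR adjusted p = 0.49). Cells with 3 or more T cell genes numbered 1, 0, 0 and 2 there, and their part in the Ccl5 reads was not tested. The test of whether the genotype difference differed between the cell classes called 1 of 377 genes (0.265%), Ighg2c, of whose 435091 reads above the limit in Abi3-/- mouse 1 a single cell held 435064. At an unadjusted p under 0.05 there were 35. The mice were separate animals, but 1 library per mouse leaves differences between mice and between libraries, which cannot be told apart.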

How the data were processed

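The authors deposited 1 table per mouse of read counts per gene and cell, the output of BD's Targeted Analysis Pipeline for Rhapsody at its defaults, after DBEC error correction. The labels' processing notes name build mm10. Reads are not molecules, so intervals on shares (exact Clopper-Pearson, 95%) cover counting error only. The tables are not filtered by cell. A cell was above the limit with more than 59300 reads and kept with at least 40 genes and at most 59300 reads. The members, gene lists and tests were chosen with earlier results of these data known.

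Shares of cells were compared over 4 mice by exact sign-flip or permutation tests, 2-sided, on cells thinned to 10000 reads. Genes were tested on counts summed per mouse and cell class with edgeR 4.0.16 (R 4.3.3; quasi-likelihood test, filterByExpr, TMM, Benjamini-Hochberg 0.05), with the mouse as a block between cell classes. Between cell classes, the offset for each gene was the reads of all other genes, and the cells were chosen by those reads. The genotype test within the cells above the limit and the test of the genotype difference between classes used the cells of the rule itself and all reads, and choosing the cells by the other genes' reads was an alternative added after seeing the data. Choosing the cells by reads outside the whole DAM list or the whole neutrophil list was another alternative added then, between classes, the first also without TMM. On simulated data the tests recovered nearly all changed genes at a low spread between mice and few or none when every gene was given the common dispersion of these data. Genes differ in their spread, so the simulation does not give the sensitivity for each gene, and genes not called may still differ. DESeq2 1.42.0 and limma 3.58.1 were alternatives, as were no TMM, no filter on low counts, other limits, no thinning, the cells of the rule itself (between classes) and each mouse left out. Seurat 5.3.0 clustered log-normalized counts with the first 10 principal components at resolution 0.8. Doublets were not called or removed by a tool.

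Genes were named by a rule: Trem2, Cd3e, Cd79a, Cxcr2, list genes past the threshold or up to 4 per list, and up to 10 genes with the largest change in each direction among those past the threshold with the same direction in 4 mice. S100a8, Hprt, Rpn2, Top2a, Cmklr1, the MHC class II and interferon genes, H2-Ob, Trem1 and Ccl5 were named after their values were seen. In the labels, same-numbered mice of the genotypes share only a number, and no batch is named. Their values were correlated, as given at the end, and whether they shared a batch was not tested. Positions come from GENCODE vM39 and were used for no count. Some genes that the rule names are not reported here.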

Additional observations from a re-analysis of the deposited data

Results flagged for a closer look

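Ighg2c, an immunoglobulin heavy chain gene, differed in its genotype difference between the cell classes, by 20.1 on the log2 scale (edgeR, adjusted p = 0.0156). Its reads above the limit numbered 435091 and 14 for Abi3-/- animals and 0 for both Abi3+/+ animals, and among kept cells 375, 0, 82 and 0. No gene was called without Abi3-/- mouse 1, without Abi3-/- mouse 2 or without Abi3+/+ mouse 1, and 1 gene was called without Abi3+/+ mouse 2.

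The share of Trem2 cells with Apoe, Cst7 and Itgax was lower in Abi3-/- by 5.88 percentage points above the limit (a difference of -5.88) and higher by 5.84 points among kept cells, with both mice of a genotype on the same side in each case. The share above the limit minus that of kept cells was 64.5 and 62.2 points in Abi3-/- and 78.6 and 71.6 in Abi3+/+, without overlap. With 2 mice per genotype the exact permutation p of the difference between these effects, 0.3333, is the smallest that can be had. This test therefore cannot decide whether the opposite signs go beyond the spread of the mice. The limit also splits cells by reads to which these genes add, so the values are a description.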

How the results depend on the processing

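The difference in cells with Apoe, Cst7 and Itgax stayed between 52.02 and 68.4 percentage points and that in cycling cells between 3.56 and 8.76 under all alternatives run. The difference in cells with Trem2 and another marker ranged from 0.141 with at least 5 reads per marker to 8.58 with gene lists. Of genes called between high-read and kept cells, main count 138, there were 211 without TMM and 216 without TMM in cells taken by reads outside the DAM list. There were 260 with DESeq2, 100 without the mouse as a block and 58 to 107 with 1 mouse left out. The difference between genotypes in the share of kept Trem2 cells with Apoe, Cst7 and Itgax, 5.84 points, ranged from 3.63 to 8.05 with 1 mouse left out. Within the cells above the limit, 0 genes were called between genotypes, but 10 with DESeq2 and 4 with the replicate number as a block. With thinned cells 1 was called, and 1 at a limit of 80000 reads. For the difference between genotype effects, 1 gene was called, but 33 with DESeq2, 0 among cells with Trem2 and no other marker, and 0 to 1 with a mouse left out. Without TMM the sign turned for Trem2 (-0.056), Cd9 (-0.13), Tyms (-0.0016), Ccl4 (-0.090), Cxcl16 (-0.15), Ly86 (-0.44), Fcer1g (-0.23), H2-Ab1 (-0.061), H2-Ob (-0.029) and Irf7 (-0.31), by the shift of the scale itself. Without TMM in cells taken by reads outside the DAM list it turned for Trem2 (-0.24), Cd9 (-0.14), Ly86 (-0.44), Fcer1g (-0.25) and H2-Ob (-0.022). At a limit of 80000 reads it turned for H2-Ab1 (-0.12), where the cause was not tested. Among cells with Trem2 and no other marker it turned for Chil3 (-2.98) and Mmp9 (-6.35), where the cause was not tested. In cells taken by reads outside the neutrophil list it turned for Cxcr2 (-3.56), Chil3 (-4.41), Mmp9 (-4.67), S100a9 (-1.68) and Trem1 (-1.04), where the genes of that list, S100a8 among them, no longer chose the cells. Over all named genes and settings, 926 values kept direction and side of the threshold, 166 lost the call, 34 gained it and 23 turned. Deviations of same-numbered mice correlated at 0.476 over 277 genes, in 2 pairs only. Reads carry amplification, doublets of 2 microglia cannot be seen by these markers, and 2 mice per genotype limit every genotype comparison.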
